A study of Arabidopsis thaliana with 13 samples.

Results

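Whole roots of the Arabidopsis thaliana mutant clv1-15 were compared with roots of Ler, the accession in which the mutant allele lies, on 6 of the 13 Affymetrix ATH1 arrays of the study. Arrays were taken by the genotype in their titles, 3 for clv1-15 and 3 for Ler. The other 7 arrays hold Col-0 roots and roots of lines that overexpress the peptide gene CLE3 in Col-0, and are not part of the comparison: they enter the filter on low values and the estimate of the spread, and their levels are given for 3 probe sets with no named gene. All plants were 10 days old and had grown at 22 °C, with 16 h of light and 8 h of darkness, on agar (1%) with MGRL medium that held 0.1 mM KNO3, 0.05% MES and, as sugar, sucrose at 1%. Ler stands for Landsberg erecta, so mutant and wild type share the erecta lesion of that accession. The mutant is represented by 1 allele, and the nature of its lesion is not given in the sources used here. Arrays are titled as biological replicates, without a statement on separate plates or days. The p-values therefore rest on the spread between such samples within a group, estimated over all 13 arrays.

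CLAVATA1 (CLV1) is a receptor kinase on the cell surface, with leucine-rich repeats outside the cell, that binds small secreted peptides of the CLE family. It is best known for limiting the stem cell pool of the shoot meristem. In roots CLV1 is known from phloem companion cells, where CLE peptides produced under nitrogen shortage act through it to hold back the growth of lateral roots. The low nitrate supply of the medium belongs to that setting, and the comparison asks how the root transcriptome of a CLV1 mutant differs from that of its wild type.

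The 6 arrays were alike in overall brightness, with a median signal of 189.8 to 193 in clv1-15 and 194.05 to 197.3 in Ler. Pearson's r across probe sets was 0.989 to 0.991 within each genotype and 0.9766 to 0.9801 between them, over probe sets that do not vary independently. Along principal component 1, with 53.04% of the variance, clv1-15 and Ler arrays lay apart. No probe set in the annotation used here is named CLV1, CLV2, CRN, RPK2, BAM1, BAM2, BAM3 or ERECTA (0 each), so the mutated gene could not be checked by name. As a description of RNA quality, the 3' over 5' signal ratio of the actin control was 5.78 to 8.97 in clv1-15 and 7.47 to 10.65 in Ler. That of the GAPDH control was 0.74 to 0.98 in clv1-15 and 0.82 to 0.90 in Ler. The 25S rRNA control gave 24.4 to 52.4 in clv1-15 and 85.8 to 194.4 in Ler. For the cre spike-in the signals were 10643.6 to 11298.9 in clv1-15 and 12576.3 to 13041.6 in Ler. The part of these controls' differences in the results was not tested.

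Between clv1-15 and Ler, 2434 of 15922 tested probe sets (15.3%) passed the test, limma's moderated test at a Benjamini-Hochberg adjusted p under 0.05. Of these, 1096 (6.88%) were higher and 1338 (8.4%) were lower in clv1-15. Most changes were small, with a median size of 0.45 on the log2 scale, and 130 (0.816%) reached 2-fold, 56 higher (0.352%) and 74 lower (0.465%). In 5515 probe sets (34.6%) the 3 clv1-15 arrays did not overlap the 3 Ler arrays. The balance of directions depends on the scaling: with each array centred on its median, 1486 were higher and 927 lower. Called genes with a name made up 12.5% to 14.6% of those tested on each of the chromosomes 1 to 5, a narrow range. Without Ler array 1 the count of calls was 1503, with 710 higher and 793 lower, and without clv1-15 array 1 or 2, 862 and 854 were lower.

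**Figure D1:**
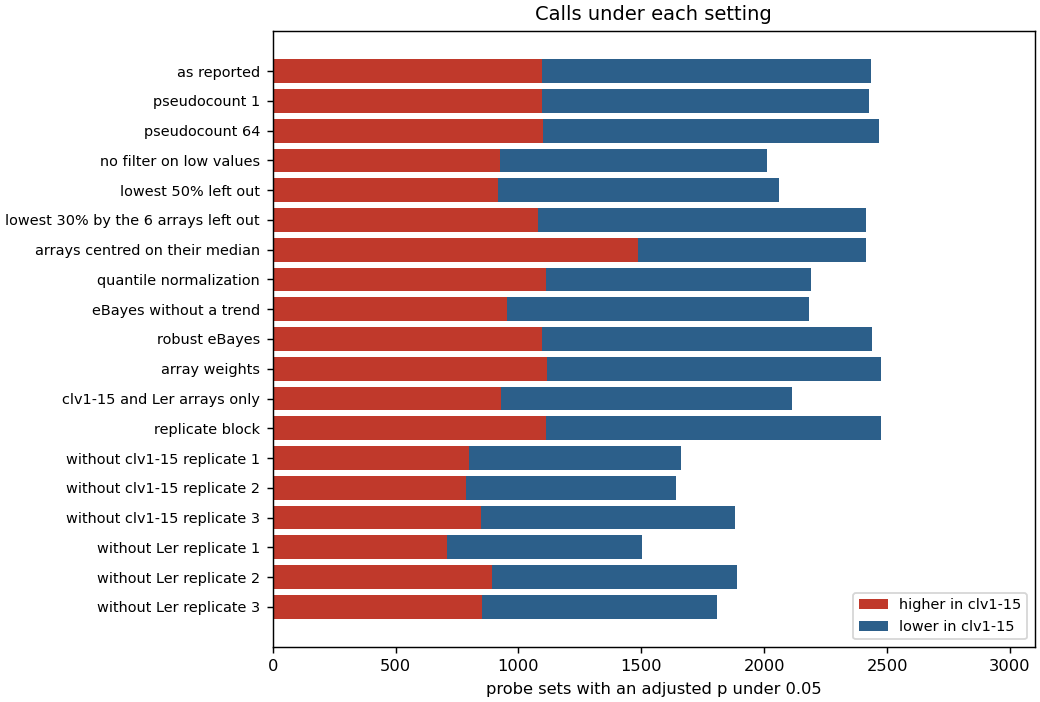
Number of probe sets called higher (red) and lower (blue) in clv1-15 against Ler under the main setting and each of the 18 alternatives. Totals run from 1503 without Ler array 1 to 2476 with the replicate number as a block, and centring arrays on their median turns the balance to 1486 higher and 927 lower.

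**Figure D2:**
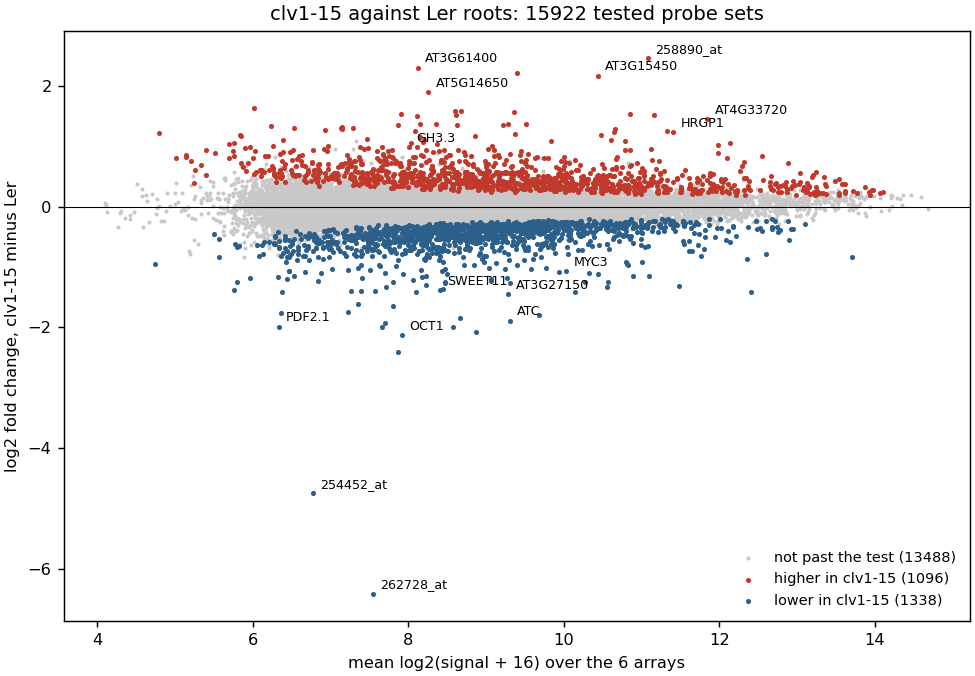
Each point is 1 of the 15922 tested probe sets, with its mean log2(signal + 16) over the 6 arrays on the x axis and the log2 fold change, clv1-15 minus Ler, on the y axis. Red marks the 1096 higher and blue the 1338 lower in clv1-15; most lie within 1 log2 unit of 0, and 262728_at and 254452_at lie far below the rest.

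The extremes of the comparison belong to probe sets that the annotation used here pairs with no gene; they were chosen after their values were seen. Probe set 262728_at had signals of 1.6, 6.0 and 5.6 in clv1-15, against 1647.0, 1682.7 and 1807.1 in Ler. The log2 difference was -6.41 ± 0.09 (SE, adjusted p = 2e-16), the deepest of all, and all 3 mutant values lie below the highest signal of the unspiked bacterial controls on the 6 arrays, 17.1 to 24.3. In the 7 Col-0 and CLE3 overexpression arrays this probe set gave 1502.9 to 2842.9, so the near absence was seen in the clv1-15 arrays and in no other array. Probe set 254452_at behaved alike, with 13.3, 2.3 and 1.8 in clv1-15, against 575.3, 522.5 and 557.4 in Ler (log2 difference -4.74 ± 0.16, adjusted p = 2.8e-11), and 374.7 to 490.2 in the other 7 arrays. Its mutant values also lie below those controls, so the size of its difference depends on the pseudocount too. In the opposite direction, 258890_at had 5238.9, 5186.4 and 4753.5 in clv1-15, against 845.4, 1030.7 and 848.9 in Ler (2.46 ± 0.10, adjusted p = 5e-10), the highest rise of all.

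Among the 8727 tested probe sets with 1 named gene, the highest rises came from enzymes, wall proteins and a pair of aluminium-induced proteins. AT3G61400, which encodes a 2-oxoglutarate-dependent dioxygenase, had signals of 690.4, 563.6 and 560.8 in clv1-15, against 91.9, 128.0 and 112.5 in Ler (log2 fold change 2.30 ± 0.17, SE, adjusted p = 6.9e-07). This is a 4.91-fold rise, with no overlap between the genotypes. AT5G14650, a pectin lyase-like gene, gave 495.4, 637.8 and 598.9 in clv1-15, against 140.9, 151.0 and 137.4 in Ler (1.89 ± 0.13, adjusted p = 2.6e-07), so that every mutant array lay at more than 3 times the wild-type level. AT4G33720, of the secreted CAP family to which pathogenesis-related protein 1 belongs, was among the brightest of these genes, with 6943.9, 6242.9 and 5178.8 in clv1-15, against 1703.4, 2109.7 and 3002.0 in Ler (1.45 ± 0.21, adjusted p = 0.00035). Its neighbour in the annotation, AT4G33730 of the same family, rose with it by 0.85 ± 0.11 (adjusted p = 0.00015), with 704.6, 717.6 and 830.8 in clv1-15, against 479.3, 358.6 and 397.2 in Ler. AT3G53980, a lipid transfer protein-like gene, had 6061.7, 5975.1 and 5248.6 in clv1-15, against 2619.4, 3065.9 and 2795.7 in Ler, a rise of 1.02 ± 0.09 (adjusted p = 6.3e-06). Its neighbour AT3G53960 rose by 0.91 ± 0.19 (adjusted p = 0.0046). The terpene synthase gene AT4G20230 (0.94 ± 0.13, adjusted p = 0.0002), the PLATZ zinc finger gene AT1G76590 (1.01 ± 0.13, adjusted p = 0.00012) and AT1G69570, which encodes a Dof factor of the CDF group (0.93 ± 0.13, adjusted p = 0.00035), rose as well. AT5G08360 stood near background throughout, with 25.5, 37.7 and 17.7 in clv1-15 and 2.1, 2.4 and 1.9 in Ler (1.22 ± 0.19, adjusted p = 0.00073). Of the 25 highest rises, 21 passed in every alternative setting that tested them; the exceptions were AT2G40250, AT2G14255, AT1G33055 and the extensin gene AT1G26240. Without Ler array 1 these had adjusted p values of 0.058, 0.073, 0.11 and 0.056, and AT2G40250 also lost its call without clv1-15 array 1 or 3 (0.095 and 0.068), AT2G14255 and AT1G33055 without clv1-15 array 2 (0.07 and 0.053), and AT1G33055 also without clv1-15 array 3 (0.085). In a fit of the clv1-15 and Ler arrays only, AT2G40250 had 0.076.

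**Figure D3:**
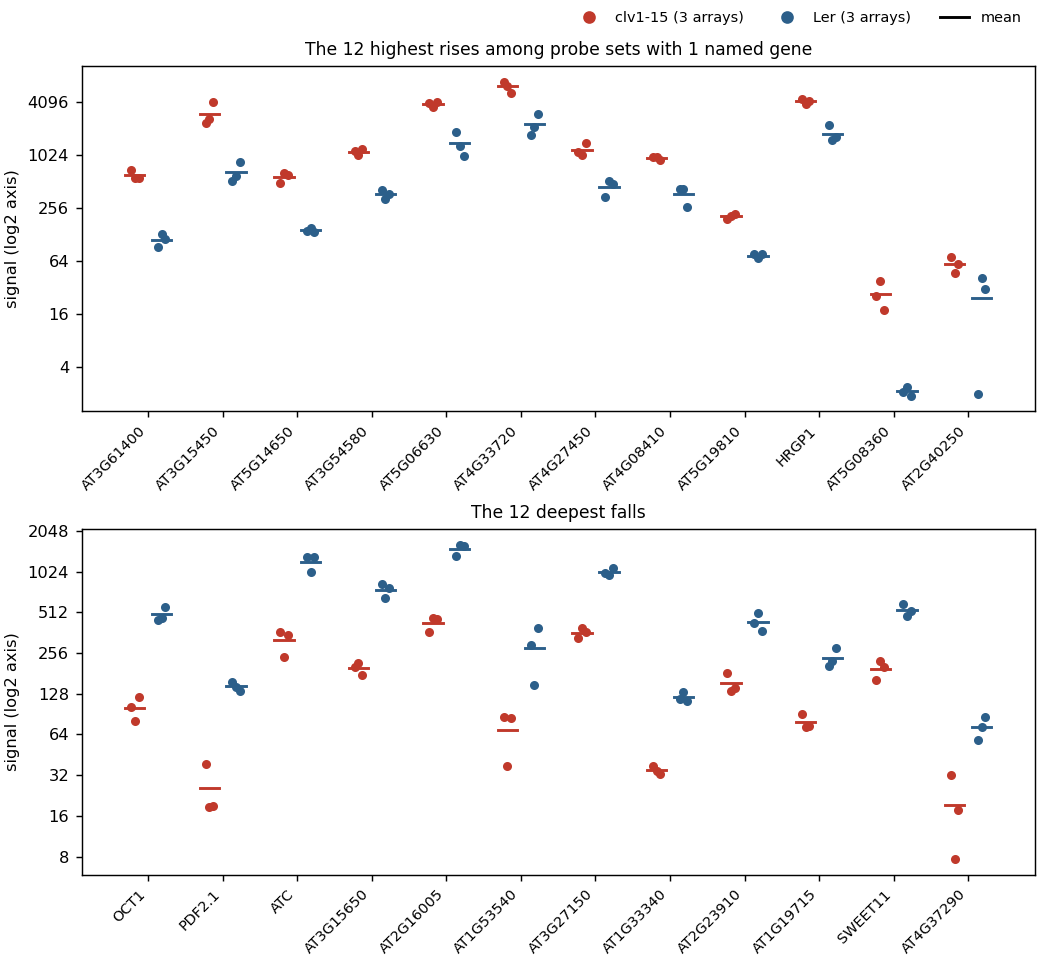
Signal on a log2 axis in each clv1-15 array (red, left of each pair) and Ler array (blue, right) for the 12 highest rises (upper panel) and the 12 deepest falls (lower panel) among probe sets with 1 named gene; bars are means. In all 24 genes the 3 clv1-15 arrays lie on 1 side of the 3 Ler arrays, which the choice of these genes required.

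Among the lists of wall genes, extensins had the highest median change. Extensins are hydroxyproline-rich glycoproteins that are crosslinked into the wall, and many are strong in root hairs. Of 10 extensin and extensin-like genes tested, 8 rose and 0 fell, with a median log2 fold change of 1.1, against a median of -0.02 and a share of 6.88% higher over all tested probe sets. The list was drawn up by locus with results of these data known, so its direction is not independent evidence. AT3G54580 had signals of 1137.5, 1024.8 and 1180.5 in clv1-15, against 409.4, 324.4 and 369.2 in Ler (1.56 ± 0.32, adjusted p = 0.0041). HRGP1, its neighbour on chromosome 3, had 4432.9, 3858.7 and 4156.1 in clv1-15, against 2224.6, 1507.9 and 1627.3 in Ler (1.23 ± 0.19, adjusted p = 0.00054), so the lowest mutant array stood well above the highest wild-type array. AT5G06630 had 3922.7, 3530.6 and 4124.4 in clv1-15, against 1855.9, 1303.0 and 1003.2 in Ler (1.51 ± 0.25, adjusted p = 0.00093). AT5G19810, a weaker gene, had 190.5, 208.3 and 217.3 in clv1-15, against 76.0, 68.6 and 76.2 in Ler (1.3 ± 0.10, adjusted p = 8.8e-07), with little spread in either genotype. AT4G08410 had 962.4, 965.4 and 895.6 in clv1-15, against 416.5, 414.8 and 261.4 in Ler (1.36 ± 0.16, adjusted p = 7.4e-05). AT1G23720 rose by 0.93 ± 0.17 (adjusted p = 0.0021), and the neighbours AT1G26240 and AT1G26250 by 0.97 ± 0.24 (adjusted p = 0.013) and 0.91 ± 0.29 (adjusted p = 0.044). The 2 members that did not pass were AT3G28550, at 0.72 ± 0.24 (adjusted p = 0.058), and AT2G43150, at -0.42 ± 0.17 (adjusted p = 0.11). AT3G28550 passed in a fit of the clv1-15 and Ler arrays only (0.0025) and with arrays centred on their median (0.044). The probe sets of AT5G06630, AT4G08410, HRGP1 and AT1G23720 are of the kinds that can bind transcripts of near-identical relatives, so these values may be shared among related genes. The calls of AT1G26240 and AT1G26250 are fragile: without Ler array 1 they had adjusted p values of 0.056 and 0.11, and that of AT1G26250 ended without any 1 of the 6 arrays (0.074 to 0.12); with a pseudocount of 64 they had 0.097 and 0.066.

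Expansins loosen the wall without cutting its polymers. Of 14 tested members of this group, 4 rose, 1 fell and 9 did not pass, with a median of 0.21, against 6.88% higher and 8.4% lower over all tested probe sets; with arrays centred on their median 7 rose and 1 fell. EXLB1, which encodes an expansin-like B protein, had 607.5, 528.6 and 534.1 in clv1-15, against 271.4, 334.4 and 295.4 in Ler (0.86 ± 0.12, adjusted p = 0.00022). EXPA18, an alpha-expansin gene of root hairs, had 1322.3, 1350.1 and 1190.8 in clv1-15, against 924.0, 655.5 and 835.5 in Ler (0.68 ± 0.10, adjusted p = 0.00059). EXPA9 ran the other way, with 952.9, 1084.1 and 1129.8 in clv1-15, against 1433.8, 1452.8 and 1319.8 in Ler (-0.41 ± 0.09, adjusted p = 0.0093). EXPB2 (0.71 ± 0.17, adjusted p = 0.013) lost its call without Ler array 3 (0.059), and EXLA1 (0.58 ± 0.17, adjusted p = 0.034) without clv1-15 array 1 (0.098) or Ler array 1 or 2 (0.10 each). The call of EXLA1 also ended in a fit of the clv1-15 and Ler arrays only (0.074). Of 5 tested root hair genes, which include HRGP1 and EXPA18, 2 rose and 0 fell, and with centred arrays 4 rose. The summed signal of these 5 was 8211.3 to 8873.3 in clv1-15 and 4721.7 to 5777.2 in Ler, and none was at 0 on any array. HRGP1, whose probe set may also bind relatives, carried most of this difference: without it the sum was 4339.5 to 4440.4 in clv1-15 and 3213.8 to 3552.6 in Ler. In whole roots, more cells of a type and more RNA per cell cannot be told apart.

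The lists of enzymes that build or remodel wall polysaccharides can be read against 6.88% higher and 8.4% lower over all tested probe sets. Of 10 tested xyloglucan enzyme genes 0 rose and 1 fell, XTH16, with 262.8, 279.1 and 278.3 in clv1-15, against 469.7, 360.2 and 372.3 in Ler (-0.52 ± 0.12, adjusted p = 0.0085). Of 16 cellulose synthase-like and endoglucanase genes 2 rose and 1 fell, and the related GH9C1 and GH9C2, which encode glycosyl hydrolase family members with a cellulose-binding module, moved apart. GH9C1 had 1034.8, 1152.9 and 1078.0 in clv1-15, against 867.5, 760.1 and 728.7 in Ler, while GH9C2 had 1476.5, 1480.5 and 1393.5 in clv1-15, against 1998.3, 2061.8 and 1969.7 in Ler. Both differences exceed the spread between arrays (0.47 ± 0.08, adjusted p = 0.0018, and -0.47 ± 0.08, adjusted p = 0.00084). CSLD2, a cellulose synthase-like gene of tip-growing cells, rose by 0.33 ± 0.07 (adjusted p = 0.008). Among 25 probe sets of the list for xylem and secondary wall genes, 5 were higher and 1 lower, with a median of 0.01. Most of these probe sets are for genes of the trichome birefringence-like family, as are all that were higher except IRX15-L. The count thus describes mainly that family and not xylem. IRX15-L, needed for xylan, rose by 0.44 ± 0.08 (adjusted p = 0.0019), and both probe sets of AT2G31110, of the trichome birefringence-like family, rose (0.63 ± 0.15, adjusted p = 0.009, and 0.50 ± 0.09, adjusted p = 0.0022). The number higher in this list was 3 without clv1-15 array 1 or 2 or without Ler array 1.

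**Figure D4:**
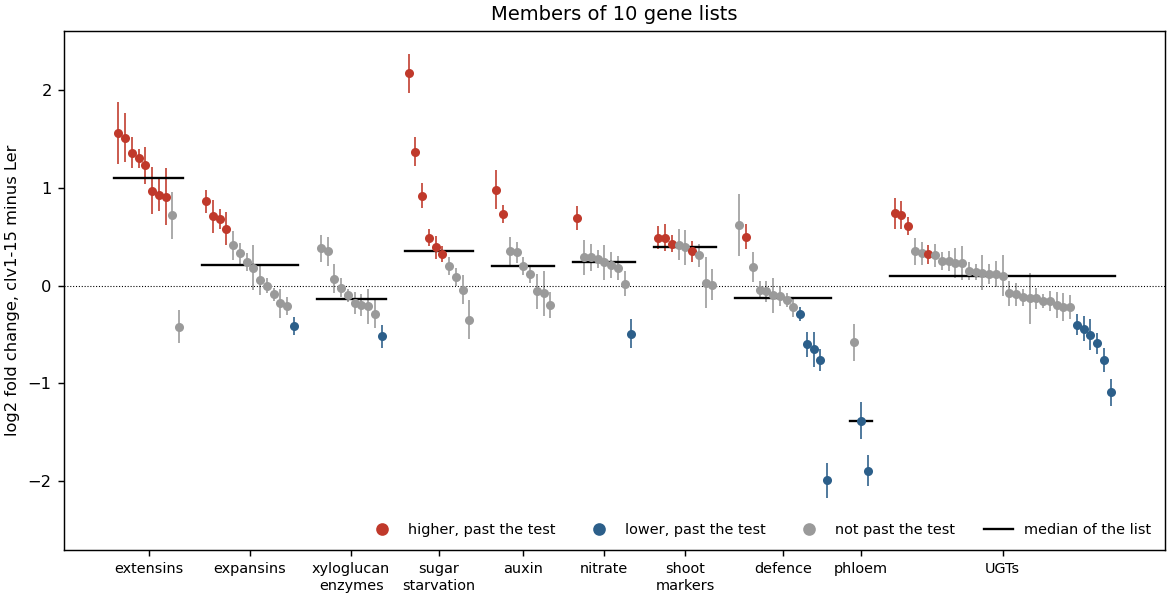
Log2 fold change, clv1-15 minus Ler, with its standard error for every tested member of 10 gene lists, sorted within each list; black bars are medians. Extensins are shifted up, with a median of 1.1 and 8 of 10 past the test, while the phloem genes lie below 0 and the glycosyltransferases spread to both sides. The lists were chosen with earlier results of these data known.

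Plants induce a set of genes in darkness or when sugar runs short, through the SnRK1 kinase and group S1 and C bZIP factors. Of 10 tested members 6 rose and 0 fell, with a median of 0.35, against 6.88% higher and 8.4% lower over all tested probe sets; leaving out 1 array at a time gave 4 to 6 rises. Among the 8 members left after AT3G15450 and AT4G27450 are set aside 4 rose and 0 fell, with a median of 0.26. AT3G15450 and AT4G27450 were placed in the list with their changes known. AT3G15450, an aluminium-induced protein gene, had 2364.8, 2612.4 and 4034.3 in clv1-15, against 520.8, 591.0 and 846.3 in Ler (2.17 ± 0.20, adjusted p = 6.5e-06), a 4.48-fold rise. AT4G27450 of the same family had 1100.9, 1021.3 and 1393.2 in clv1-15, against 339.7, 513.8 and 484.2 in Ler (1.37 ± 0.15, adjusted p = 4.1e-05), again without overlap. The family as a whole, 5 genes collected by locus after results were known, had 4 rises and 0 falls. Its member AILP1 rose by 0.58 ± 0.08 (adjusted p = 0.00025), while AT5G43830 stood at 0.27 ± 0.11 (adjusted p = 0.11) and AT3G22850 passed narrowly (0.25 ± 0.08, adjusted p = 0.045). ATL8, a RING-type ubiquitin ligase gene of sugar starvation, had 257.6, 229.3 and 269.1 in clv1-15, against 105.3, 147.3 and 125.7 in Ler (0.92 ± 0.13, adjusted p = 0.00037). AKINBETA1, which encodes a beta subunit of SnRK1, had 724.3, 739.5 and 786.7 in clv1-15, against 505.0, 533.8 and 549.5 in Ler (0.49 ± 0.09, adjusted p = 0.002). BZIP53 (0.32 ± 0.08, adjusted p = 0.017) and IVD, of branched-chain amino acid breakdown (0.39 ± 0.12, adjusted p = 0.041), passed less firmly. Without clv1-15 array 3 the adjusted p was 0.06 for BZIP53, 0.17 for IVD and 0.055 for AT3G22850. BZIP53 also lost its call without Ler array 1 (0.083), IVD without clv1-15 array 2 or Ler array 2 or 3 (0.058, 0.10 and 0.13), and AT3G22850 without any array but Ler array 2 (0.055 to 0.14). In a fit of the clv1-15 and Ler arrays only, IVD had 0.071.

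Related sugar transporter genes moved in opposite directions. SWEET proteins export sugars from cells or from the vacuole. Of 8 tested genes of sugar transport and cleavage 2 rose, 1 fell and 5 did not pass. Over all tested probe sets 6.88% were higher and 8.4% lower. SWEET11, a sucrose exporter gene of phloem loading, had 161.7, 222.4 and 201.2 in clv1-15, against 592.6, 483.2 and 521.6 in Ler (-1.38 ± 0.19, adjusted p = 0.00024). SWEET16, a vacuolar member of the family, had 1069.2, 763.2 and 725.0 in clv1-15, against 463.1, 462.8 and 429.3 in Ler (0.87 ± 0.12, adjusted p = 0.00027). SWEET17, also vacuolar, rose by 0.29 ± 0.08 (adjusted p = 0.021), a call that ended without clv1-15 array 3 (0.081) or Ler array 3 (0.084). ATC, a homologue of TERMINAL FLOWER 1 whose product moves through the phloem, had 366.3, 241.2 and 345.9 in clv1-15, against 1311.6, 1010.0 and 1306.4 in Ler (-1.89 ± 0.16, adjusted p = 2.9e-06). The 3 tested phloem genes were SWEET11, ATC and OPS (-0.58 ± 0.19, adjusted p = 0.056), and 2 of the 3 fell. Their summed signal was 541.5 to 656.1 in clv1-15 and 1626.2 to 2087.5 in Ler, and none was at 0. ATC carried most of this difference, with a mean of 317.8 in clv1-15 and 1209.3 in Ler. ATC and SWEET11 are among the 25 deepest falls, and the phloem list was chosen with earlier results of these data known. Its direction is therefore not independent evidence. SWEET13 and SWEET14, of the sugar transport list, did not pass (-0.05 ± 0.09, adjusted p = 0.78, and 0.29 ± 0.14, adjusted p = 0.16). OCT1, an organic cation and carnitine transporter gene, was the deepest named fall, with 102.0, 79.9 and 122.0 in clv1-15, against 453.4, 468.4 and 560.7 in Ler (-2.13 ± 0.13, adjusted p = 1.5e-07). Its relative OCT4 ran the other way (0.66 ± 0.18, adjusted p = 0.02), a call that ended without clv1-15 array 3 (0.069) or Ler array 1 or 3 (0.064 and 0.065).

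**Figure D5:**
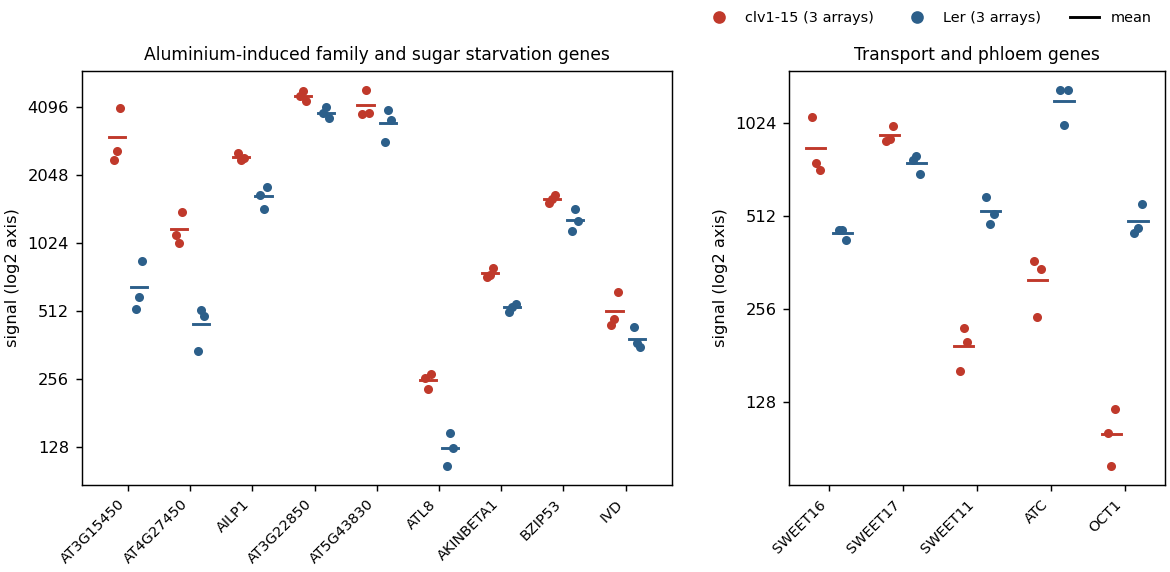
Signal on a log2 axis in each clv1-15 array (red, left of each pair) and Ler array (blue, right), with means as bars, for aluminium-induced family and sugar starvation genes (left panel) and for transport and phloem genes (right panel). SWEET16 and SWEET17 are higher and SWEET11, ATC and OCT1 lower in clv1-15, with no overlap between the genotypes in these 5 genes.

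GH3 enzymes conjugate auxin to amino acids and are induced by it. GH3.3 had 431.1, 294.3 and 325.1 in clv1-15, against 143.1, 140.4 and 233.5 in Ler (0.98 ± 0.20, adjusted p = 0.0047), and WES1 had 1364.0, 1341.1 and 1402.6 in clv1-15, against 752.5, 781.4 and 926.2 in Ler (0.73 ± 0.09, adjusted p = 7.7e-05). These were 2 of 9 tested auxin genes, with 0 falls and a median of 0.20, against 6.88% higher and 8.4% lower over all tested probe sets. Of the 9, 6 lay above 0. Other tested GH3 genes did not pass: GH3.17 stood at 0.34 ± 0.11 (adjusted p = 0.053) and GH3.1 at -0.20 ± 0.13 (adjusted p = 0.33). The lateral root list held 4 tested members, of which 1 rose and 0 fell, with a median of 0.30. Their summed signal was 534.5 to 619.7 in clv1-15 and 460.1 to 525.0 in Ler, and none was at 0. CR4, a member of this list, ran the other way without passing (-0.31 ± 0.23, adjusted p = 0.37). LBD16, a factor of lateral root founder cells, had 279.0, 329.8 and 254.9 in clv1-15 and 270.3, 263.4 and 239.5 in Ler, which overlap (0.15 ± 0.11, adjusted p = 0.42). LBD29, its relative, stood at 0.45 ± 0.15 (adjusted p = 0.054), and PUCHI, an AP2 factor of early primordia, at 0.47 ± 0.14 (adjusted p = 0.039), a call that ended without any 1 of the 6 arrays (0.053 to 0.12). Among the other hormone lists, 0 of 5 gibberellin, 0 of 2 ethylene and 0 of 2 cytokinin genes passed, 1 of 5 brassinosteroid genes fell and 1 of 8 abscisic acid genes rose, shares that numbers this small cannot set apart from the 15.3% over all tested probe sets. The abscisic acid list member AT2G46140, a late embryogenesis abundant protein gene, rose by 0.36 ± 0.08 (adjusted p = 0.0061). BRL1, a brassinosteroid receptor gene, passed narrowly downward (-0.35 ± 0.11, adjusted p = 0.047), a call that ended with centred arrays (0.079) and without any array but clv1-15 array 3 (0.051 to 0.15). The gibberellin receptor gene GID1A had 0.23 ± 0.08 (adjusted p = 0.065) and passed with centred arrays (0.028) and under quantile normalization (0.043).

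Of 9 tested genes of nitrate transport and assimilation, 1 rose and 1 fell, with a median of 0.24; these shares, 11.1% each, lie near the 6.88% higher and 8.4% lower over all tested probe sets. AT1G59740, a transporter gene of the NPF family, had 533.8, 421.4 and 428.7 in clv1-15, against 265.1, 304.2 and 268.5 in Ler (0.69 ± 0.12, adjusted p = 0.0015). AT3G21670 of the same family had 467.7, 440.8 and 282.4 in clv1-15, against 486.8, 595.6 and 579.2 in Ler (-0.49 ± 0.15, adjusted p = 0.04), and its call ended without clv1-15 array 3 or Ler array 2 or 3 (0.15, 0.12 and 0.11), with centred arrays (0.064) and under quantile normalization (0.064). Of 6 tested CLE peptide and CLAVATA pathway genes 0 passed, with values between -0.31 and 0.36. These were CR4, AT4G28650, CLE44, CLE41, AT1G08590 and POL. CLE21, CLE26, CLE27, CLE40 and CLV3 were left out by the filter on low values, and CLV1 has no named probe set. The pathway was thus measured only in part. AT1G08590, a receptor kinase gene related to CLV1, had 655.1, 766.1 and 770.3 in clv1-15 and 582.7, 721.5 and 562.9 in Ler (0.23 ± 0.12, adjusted p = 0.22), which overlap. Among 7 tested genes of small secreted peptides, RALFL22, of the RALF family that acts on cell expansion, rose and RALFL24 passed narrowly downward (-0.35 ± 0.11, adjusted p = 0.045), a call that ended in 12 of the alternatives, among them leaving out any array but Ler array 3 (0.052 to 0.16). RALFL22 had 4116.2, 4571.0 and 4211.9 in clv1-15, against 3332.0, 3010.6 and 3521.7 in Ler (0.39 ± 0.07, adjusted p = 0.002). AT4G37290, which encodes a precursor of a secreted immune-related peptide, fell to 32.3, 7.7 and 17.6 in clv1-15, against 58.6, 72.4 and 86.3 in Ler (-1.38 ± 0.23, adjusted p = 0.0012). The lower mutant values are near background, so the size of this fall depends on the pseudocount. Sulfate activation showed APS3, an ATP sulfurylase gene, at 552.7, 443.6 and 390.9 in clv1-15, against 274.0, 323.5 and 311.1 in Ler (0.57 ± 0.11, adjusted p = 0.0033).

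AT3G27150, a kelch-repeat F-box gene cut by the microRNA miR2111 that travels from shoot to root, had 329.6, 391.6 and 368.2 in clv1-15, against 996.6, 961.1 and 1093.2 in Ler (-1.45 ± 0.10, adjusted p = 3.4e-07). The genotypes are nearly 3 times apart and the arrays within each lie close together. In nodulating legumes such F-box genes and CLV1-related receptors belong to the same systemic control of root symbiosis. Regulatory genes that fell included MYC3, a bHLH factor of jasmonate response chosen after its values were seen, with 672.1, 725.1 and 724.8 in clv1-15, against 1540.5, 1436.9 and 1535.5 in Ler (-1.07 ± 0.09, adjusted p = 1.4e-06). Its close relative MYC4 had -0.12 ± 0.14 (adjusted p = 0.6), whereas UBP21, a gene near MYC3 on chromosome 5 that encodes a ubiquitin-specific protease, had 179.5, 218.8 and 229.4 in clv1-15, against 408.2, 375.6 and 375.9 in Ler (-0.84 ± 0.11, adjusted p = 0.00012). HYH, the homologue of the light-response bZIP factor HY5, had 205.9, 156.3 and 124.0 in clv1-15, against 419.2, 438.0 and 320.1 in Ler (-1.21 ± 0.19, adjusted p = 0.00061).

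Of 14 tested genes of salicylate and pathogen defence, 5 fell and 1 rose, against 8.4% lower and 6.88% higher over all tested probe sets, and the median was -0.13. Centred arrays gave the same counts, and leaving out 1 array at a time gave 3 falls (without Ler array 3) or 4 falls and 0 to 2 rises. PDF2.1, a plant defensin gene, had 38.9, 18.6 and 19.1 in clv1-15, against 156.8, 144.6 and 134.2 in Ler (-1.99 ± 0.18, adjusted p = 3.9e-06), close to background in the mutant. The chitinase genes ChiC and CHI had 281.1, 276.1 and 280.5, and 114.4, 128.6 and 102.7 in clv1-15. In Ler they had 439.0, 483.4 and 537.8, and 219.9, 173.5 and 157.6 (-0.76 ± 0.11, adjusted p = 0.00034, and -0.60 ± 0.13, adjusted p = 0.0076). LCR68, the bright neighbour of PDF2.1 and also a defensin, fell by 0.29 on the log2 scale (adjusted p = 0.016), WRKY53 by 0.65 (0.023), and PR-1-LIKE rose by 0.50 ± 0.13 (adjusted p = 0.015). These 3 calls ended without a single array, that of LCR68 without clv1-15 array 3 or Ler array 2 or 3 (0.066, 0.057 and 0.065). For WRKY53 these were clv1-15 arrays 1 and 2 and Ler arrays 1 and 3 (0.06 to 0.10), and for PR-1-LIKE clv1-15 array 2 or Ler array 1 or 2 (0.067, 0.055 and 0.06). AT1G19715, a jacalin lectin gene, had 91.4, 73.1 and 73.5 in clv1-15, against 205.2, 223.5 and 277.0 in Ler (-1.39 ± 0.16, adjusted p = 4.8e-05).

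Other genes among the deepest falls belong to several families. AT1G53540, a class I small heat shock protein gene, had 85.7, 37.3 and 84.3 in clv1-15, against 291.5, 148.8 and 393.8 in Ler (-1.75 ± 0.29, adjusted p = 0.001), with a wide spread in both. AT2G21640, a marker gene of oxidative stress, had 438.3, 403.0 and 348.0 in clv1-15, against 1051.2, 631.6 and 1148.3 in Ler (-1.18 ± 0.19, adjusted p = 0.00088). The MATE-type efflux carrier genes AT2G04050 and AT2G04070, which lie within 5 genes of each other, fell together, while AT5G52050, the 1 tested gene of the MATE list, passed narrowly upward (0.42 ± 0.13, adjusted p = 0.042). The call of AT5G52050 ended without any array but clv1-15 array 2 (0.052 to 0.19), and in a fit of the clv1-15 and Ler arrays only (0.086). Of the pair, AT2G04050 had 208.2, 161.9 and 245.2 in clv1-15, against 477.1, 407.9 and 832.7 in Ler (-1.36 ± 0.26, adjusted p = 0.0031), and AT2G04070 had 89.3, 106.2 and 103.3 in clv1-15, against 228.4, 183.6 and 242.0 in Ler (-1.01 ± 0.15, adjusted p = 0.0005). AT3G15650 and AT1G52700, related hydrolase-like genes of the acyl-protein thioesterase type on different chromosomes, fell by 1.84 (adjusted p = 8.1e-07) and 1.19 (adjusted p = 0.0014) on the log2 scale. AT3G15650 had 201.6, 217.9 and 175.5 in clv1-15, against 834.5, 651.0 and 775.2 in Ler (-1.84 ± 0.14, adjusted p = 8.1e-07), while AT3G15630, 3 genes away, rose (0.96 ± 0.18, adjusted p = 0.0028). AT2G16005, of the MD-2-related lipid recognition family, had 363.6, 465.6 and 457.0 in clv1-15, against 1343.1, 1619.3 and 1592.8 in Ler (-1.79 ± 0.12, adjusted p = 2.6e-07). The peroxidase gene AT5G64120 had 333.4, 358.0 and 324.9 in clv1-15, against 786.3, 777.2 and 828.5 in Ler (-1.20 ± 0.09, adjusted p = 9.7e-07). Over all tested probe sets 8.4% were lower and 6.88% higher. In the list of class III peroxidases that holds AT5G64120, 2 of 6 fell and 1 rose, with a median of 0.09. The call of the other that fell, Prx37 (-0.41 ± 0.11, adjusted p = 0.023), ended without any array but Ler array 2 (0.05 to 0.083). That of the member that rose, AT2G41480 (0.51 ± 0.17, adjusted p = 0.049), ended without clv1-15 array 1 or 2 or Ler array 1 or 3 (0.10 to 0.21). It also ended in a fit of the clv1-15 and Ler arrays only (0.096). Of the 25 deepest falls 24 passed in every alternative setting that tested them. CYP718 (-1.25 ± 0.32, adjusted p = 0.016) lost its call without clv1-15 array 1 or 2 or Ler array 1 (0.065, 0.07 and 0.082). Its mean was 22.5 in clv1-15, near background, and 72.5 in Ler.

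Glycosyltransferases of the UGT family, which attach sugars to hormones and secondary metabolites, spread to both sides. Of 33 tested 4 rose (12.1%), 6 fell (18.2%) and 23 did not pass, with a median of 0.10, against 6.88% higher and 8.4% lower over all tested probe sets. UGT78D2, a flavonol and anthocyanin glucosyltransferase gene, had 900.9, 913.8 and 778.1 in clv1-15, against 2239.4, 1806.5 and 1571.4 in Ler (-1.09 ± 0.14, adjusted p = 0.00013). UGT73D1 (-0.76 ± 0.12, adjusted p = 0.00089) and UGT73B4 (-0.59 ± 0.11, adjusted p = 0.0019) were lower as well. UGT71C1 had 3522.4, 3918.4 and 3720.3 in clv1-15, against 2358.2, 2136.7 and 2833.1 in Ler (0.61 ± 0.09, adjusted p = 0.00063), and its relative UGT71C2 rose beside it (0.72 ± 0.14, adjusted p = 0.0028). With arrays centred on their median 7 were higher and 4 lower, so the balance depends on the scaling. The number lower was 3 without clv1-15 array 1 or 2 or without Ler array 1. Among cytochrome P450 genes 1 of 11 rose, CYP78A9 (0.61 ± 0.10, adjusted p = 0.00093), and 3 fell, among them CYP71B6 (-0.34 ± 0.06, adjusted p = 0.0029). HCT, of lignin synthesis, had 7025.1, 8009.2 and 7102.7 in clv1-15, against 5489.2, 4982.3 and 6363.6 in Ler (0.40 ± 0.08, adjusted p = 0.0053), and BGLU46, a beta-glucosidase gene, rose by 0.68 ± 0.13 (adjusted p = 0.0026). No gene of 7 in the glucosinolate list passed, with PYK10 at 0.12 ± 0.07 (adjusted p = 0.29) and BCAT4 at 0.32 ± 0.12 (adjusted p = 0.087).

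Of 9 tested nuclear photosynthesis genes, which serve as markers of shoot tissue, 4 rose and 0 fell, with a median of 0.39, against 6.88% higher and 8.4% lower over all tested probe sets. Their summed signal was 2797.7, 2872.0 and 2917.4 in clv1-15, against 1895.4, 2359.8 and 2252.4 in Ler, and none was at 0. LHCB4.1, a light-harvesting protein gene, had 494.3, 549.7 and 500.1 in clv1-15, against 345.5, 420.1 and 372.8 in Ler (0.43 ± 0.09, adjusted p = 0.0066). The other 3 calls, RCA, LHCB4.3 and PSBY, each ended without some array. For RCA this was clv1-15 array 3 or Ler array 1 (0.053 and 0.065), for LHCB4.3 clv1-15 array 1 or 3 or Ler array 2 or 3 (0.073 to 0.10), and for PSBY any 1 of the 6 (0.054 to 0.15). Of 63 plastid-encoded probe sets 8 rose (12.7%, against the same 6.88%) and 1 fell, with a median of 0.12 and 53 above 0. The plastid gene rbcL, the large Rubisco subunit gene, had 562.5, 624.5 and 607.4 in clv1-15, against 371.9, 475.1 and 472.9 in Ler (0.44 ± 0.10, adjusted p = 0.0069). matK (0.55 ± 0.12, adjusted p = 0.0077) and ndhI (0.48 ± 0.10, adjusted p = 0.0056) rose in the same way. The number higher was 5 without clv1-15 array 1 and 4 without Ler array 2. The part of shoot tissue or plastid number in these values was not tested.

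Families outside these groups included falls that were picked after their values were seen. NET1 proteins bind actin at membranes, and 3 of the 4 tested NET1 genes fell, against 8.4% lower over all tested probe sets. NET1B had 305.9, 452.5 and 306.6 in clv1-15, against 649.6, 658.3 and 560.2 in Ler (-0.80 ± 0.14, adjusted p = 0.0017), NET1A fell by 0.45 on the log2 scale (adjusted p = 0.0078), and NET1C stood at -0.36 ± 0.16 (adjusted p = 0.14). NET1D fell by 0.41 (adjusted p = 0.013), a call that ended without clv1-15 array 3 (0.055). NRPC1 and NRPC2, the largest subunits of RNA polymerase III, fell by 0.47 (adjusted p = 0.013) and 0.51 (adjusted p = 0.00084), and that of NRPC1 ended without Ler array 1 (0.051). The matching subunits of RNA polymerase I, NRPA1 and NRPA2, stood at -0.38 ± 0.14 (adjusted p = 0.07) and -0.28 ± 0.10 (adjusted p = 0.069). HIS1-3, a drought-inducible linker histone gene, had 51.5, 59.3 and 75.2 in clv1-15, against 101.3, 124.2 and 135.0 in Ler (-0.81 ± 0.16, adjusted p = 0.0032). Of 7 histone genes 2 fell and 0 rose, against the same 8.4% lower and 6.88% higher. SBT3.5, a subtilase gene, had 217.1, 184.1 and 153.8 in clv1-15, against 334.1, 433.3 and 433.0 in Ler (-1.05 ± 0.15, adjusted p = 0.00026).

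The brightest called genes moved by little. The 10 with the highest mean signal all rose, by 0.19 to 0.49 on the log2 scale, and 6 of them encode cytosolic ribosomal proteins. Over all tested probe sets 6.88% were higher and 8.4% lower. The choice required a call, and ribosomal protein genes that did not pass were not counted, so this is no result for that class. Genes as bright that did not pass include PRXR1 (0.19 ± 0.08, adjusted p = 0.13) and MT1C (-0.16 ± 0.07, adjusted p = 0.11). AT5G19510, a translation elongation factor 1-beta gene, had 11416.0, 11540.5 and 14218.7 in clv1-15, against 8258.4, 8725.1 and 9446.7 in Ler (0.49 ± 0.08, adjusted p = 0.0012). PMEAMT, a phosphoethanolamine methyltransferase gene, had 12003.2, 12107.6 and 11566.1 in clv1-15, against 9465.6, 8481.8 and 9658.6 in Ler (0.37 ± 0.07, adjusted p = 0.0024). These 2 passed in every alternative setting, and the other 8 did not: quantile normalization ended the calls of all 8, the 6 ribosomal genes included (adjusted p 0.059 to 0.52). MSRB9, a methionine sulfoxide reductase gene, was nearly as bright and rose further, with 10660.1, 9972.7 and 9800.3 in clv1-15, against 6885.3, 7107.4 and 6779.8 in Ler (0.55 ± 0.06, adjusted p = 2.4e-05).

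Neighbours in the genome were looked at because a mutant line can carry linked differences. They were sought around the leading genes and not around CLV1, so linkage to the mutated gene was not tested. Of 197 pairs of a leading gene and a tested neighbour within 5 genes, 36 (18.3%) had a called neighbour, and 24 of these moved the same way. Neighbours were sought among the 8727 tested probe sets with 1 named gene, of which 1178 were called (6.1% higher and 7.4% lower). Neighbours of leading genes are not a random draw, and a pair of 2 leading genes is counted from each side. The pairs with near copies of each other, such as AT3G54580 with HRGP1 and AT4G33720 with AT4G33730, are counted there.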

How the data were processed

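Total root RNA was measured on Affymetrix ATH1 arrays. The deposited values are intensities on a linear scale, made by the authors with MAS5 per the submitters' processing notes, and the 2% trimmed mean of every array was 500. From these, log2(signal + 16) was computed, and 64 control probe sets and the lowest 30% by mean over the 13 arrays were left out, leaving 15922 of 22810. limma 3.58.1 in R 4.3.3 was fitted to the 5 groups (8 residual degrees of freedom, trended eBayes) and p-values were Benjamini-Hochberg adjusted over all tested probe sets. Fold changes are clv1-15 minus Ler on the log2(value + 16) scale, which understates changes of low genes; errors are standard errors. GEO's platform annotation, updated to TAIR10.1, named 1 gene for 13513 probe sets, several for 503 and none for 8730, and 13436 of the first matched. Named were the 25 highest rises, the 25 deepest falls, the 10 brightest called genes, up to 8 members per list, and called neighbours within 5 genes. The members and lists were chosen with earlier results of these data known. The fit was tested on simulated data. With 3 arrays per genotype, their number limits the precision.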

Additional observations from a re-analysis of the deposited data

How the results depend on the processing

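Of the 2434 calls, 1053 (43.3%) passed in every alternative that tested them. Counts of calls were 1503 to 1888 when 1 array was left out, with 710 to 892 higher and 793 to 1035 lower, against 2434, 1096 and 1338 with all arrays. With another pseudocount, filter, normalization or prior, or with array weights, the total was 2012 to 2474. Centring arrays on their median gave 1486 higher and 927 lower, and quantile normalization 1114 and 1075. Between 1412 and 2410 of the calls were shared with each alternative, 0 with the other sign. Over all alternatives, the 197 named probe sets past the threshold lost the call in 451 cases and turned direction in 0, and the 80 not past it gained a call in 41. With the replicate number as a block, in a fit of the clv1-15 and Ler arrays only, 2476 passed, of which 2088 were shared. The same arrays without the block gave 2113, of which 1930 were shared. Deviations of same-numbered arrays correlated at 0.013, 0.187 and 0.101, and those of arrays with different numbers at -0.165 to 0.078. Whether equal numbers mark a shared day or plate is not stated, so they were not taken as pairs. Ler array 1 correlated better with clv1-15 array 3 (0.078) than with its own number. Signals near background limit low genes.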

Other observations

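Probe set 260795_at, which the annotation used here pairs with no gene and which was chosen after its values were seen, had signals of 88.5, 99.6 and 107.4 in clv1-15, against 20.3, 23 and 18.8 in Ler (1.64 ± 0.25, limma's adjusted p = 0.00061). In the CLE3 overexpression arrays it gave 11179.6 to 13438.6, against 1.2 to 31.0 in Col-0. The Ler and Col-0 signals are near those of the unspiked bacterial controls, whose highest signal was 17.1 to 24.3 on the clv1-15 and Ler arrays, so the size of a log2 difference depends on the pseudocount of 16.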
